A study of Mus musculus with 11 samples.

Results

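The Arp2/3 complex was examined through the transcripts of 10 genes that encode its subunits, Actr2, Actr3, Actr3b, Arpc1a, Arpc1b, Arpc2, Arpc3, Arpc4, Arpc5 and Arpc5l. They were chosen by name and matched by gene symbol, and all 10 were found among the 53700 genes listed and among the 17626 genes tested. RNA came from cerebral cortex of 5xFAD females, 8 months old, and was read by QuantSeq, which sequences 1 fragment near the poly(A) tail of each transcript. Of the animals, 6 carried both copies of Abi3 (Abi3_WT, n = 6) and 5 had none (Abi3_KO, n = 5). Animals of both groups were labelled C57BL/6 and carried the 5xFAD transgenes, which are driven by the neuronal Thy1 promoter and lead to amyloid deposits in the brain. The Abi3 null allele was made in C57BL/6N and the 5xFAD line has B6SJL ancestry, and by the study's methods every mouse was heterozygous for the Trem2 S148E variant that SJL mice carry. Abi3 was absent from all cells from conception, and no group without the 5xFAD transgenes was part of these samples.

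The Arp2/3 complex starts a new actin filament on the side of an existing one and so builds branched networks, which drive lamellipodia, phagocytic cups and the heads of dendritic spines. ACTR2 and ACTR3 are the actin-related proteins that mimic the first pair of actin subunits of the branch, ARPC2 and ARPC4 form the core that holds the mother filament, and ARPC1, ARPC3 and ARPC5 complete the assembly. At 3 places the complex can be filled by either of 2 paralogs (ARPC1A or ARPC1B, ARPC5 or ARPC5L, ACTR3 or ACTR3B), with ARPC1B being the form on which blood and immune cells depend. The complex is nearly inactive until a nucleation-promoting factor binds it. One such factor is the WAVE regulatory complex, of which ABI3 is a subunit, interchangeable with ABI1 and ABI2.

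The members lie on 5 chromosomes, and Arpc1a (chr5:145020600-145045572, GRCm39, plus strand) and Arpc1b (chr5:145051025-145067515, plus strand) are neighbours with 5452 bases between them. Arpc3 is on the same chromosome (chr5:122529941-122552247, plus strand). Actr2 shares chromosome 11 with Abi3, at a distance of 75.7 Mb. The promoters of the neighbouring paralogs and of Arpc3 are shown because the largest fold changes among the members were those of Arpc1b and Arpc3. They are RefSeq sequences on GRCm38.p6, 250 bases before and 50 bases after the annotated start, at chr5:145083619-145083918 for Arpc1a, chr5:145114006-145114305 for Arpc1b and chr5:122391628-122391927 for Arpc3, all on the plus strand. Capitals mark the 8 letters GAGGAAGT, a match to the motif of the myeloid factor PU.1, or CCGGAAGT, a match to the motif of broadly expressed ETS factors, on either strand.
Arpc1a: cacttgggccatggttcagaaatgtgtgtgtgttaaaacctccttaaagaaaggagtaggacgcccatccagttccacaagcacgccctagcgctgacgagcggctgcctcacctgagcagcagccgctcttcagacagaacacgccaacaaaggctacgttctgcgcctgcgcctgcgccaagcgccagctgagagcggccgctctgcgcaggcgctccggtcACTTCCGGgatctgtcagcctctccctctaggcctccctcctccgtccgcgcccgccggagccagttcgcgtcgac
Arpc1b: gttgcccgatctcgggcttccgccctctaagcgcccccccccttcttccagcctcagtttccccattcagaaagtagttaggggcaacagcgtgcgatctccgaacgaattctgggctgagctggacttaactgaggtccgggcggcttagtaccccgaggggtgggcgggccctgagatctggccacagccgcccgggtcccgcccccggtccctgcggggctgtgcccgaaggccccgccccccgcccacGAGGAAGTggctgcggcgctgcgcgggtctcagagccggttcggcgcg
Arpc3: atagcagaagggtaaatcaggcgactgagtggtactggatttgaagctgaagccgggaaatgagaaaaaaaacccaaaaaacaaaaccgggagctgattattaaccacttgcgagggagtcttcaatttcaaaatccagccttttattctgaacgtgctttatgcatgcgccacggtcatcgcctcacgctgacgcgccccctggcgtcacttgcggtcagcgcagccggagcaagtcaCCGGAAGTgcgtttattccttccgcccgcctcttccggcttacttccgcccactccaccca
The PU.1 letters were in the Arpc1b promoter and in none of the other 7 member promoters in the table, beside 3.2% of 32851 mouse promoters of the same length. The ETS letters were in 5 of the 8 (Actr2, Actr3, Arpc1a, Arpc3 and Arpc4), beside 3.89% of all promoters, and share their last 6 letters with the PU.1 motif. The NRF1 letters GCGCATGC were in the promoters of Actr3, Arpc2 and Arpc3 (2.71% of all promoters), the GC box GGGCGG in 6 of the 8 (35.7%), and an SRF CArG box in that of Arpc4 (1.63%). These are matches of letters and not measured binding sites. The motifs were chosen after the sequences were seen, so the shares of all promoters do not test whether the members carry them more often.

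The libraries held 3202310 to 5501958 reads in genes. Abi3, the deleted gene, had 10 to 38 reads in each Abi3_WT animal, 2 reads in Abi3_KO replicate 2 and 0 in 4 Abi3_KO animals, and the groups did not overlap (exact permutation test on normalized counts, two-sided, p = 0.00433, the smallest this design allows). For each 100 reads in genes, a library held 65.9 ± 3.67 (SD, n = 6) reads given to no gene feature if Abi3_WT and 54.0 ± 4.99 (SD, n = 5) if Abi3_KO (p = 0.00866 by a two-sided exact permutation test). They are called reads outside genes below, although they can include reads in introns or on the other strand of a gene. Genotype and this property of the libraries moved together in 11 animals, and its part in the results below was not tested beyond the fit that includes it. The labels name no batch. In whole cortex, a change in the number of cells of a type and a change in RNA per cell cannot be told apart.

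None of the 10 subunit transcripts passed the threshold for a genotype difference, a DESeq2 adjusted p of at most 0.05. Over all genes tested 95 passed, 60 higher and 35 lower in Abi3_KO, which is 0.539%. Of the genes tested only 6487 were given an adjusted p and so could pass, all 10 members among them. Arpc3, Arpc1b and Arpc5 were higher in Abi3_KO cortices with an unadjusted p under 0.05, and no member was lower with such a p. That is 3 of 10, where 4.14% of all genes tested were higher and 4.44% lower at that unadjusted p, and where 7.45% were higher among the 6487 genes with enough reads to be given an adjusted p. The fold change was above 0 for 9 of the 10 members, 1 of them (Actr3, 0.00057 on the log2 scale) barely so. The median log2 fold change of the 10 was 0.12, beside -0.0033 over all genes tested and 0.026 over the genes given an adjusted p, of which 56.1% were above 0.

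**Figure D1:**
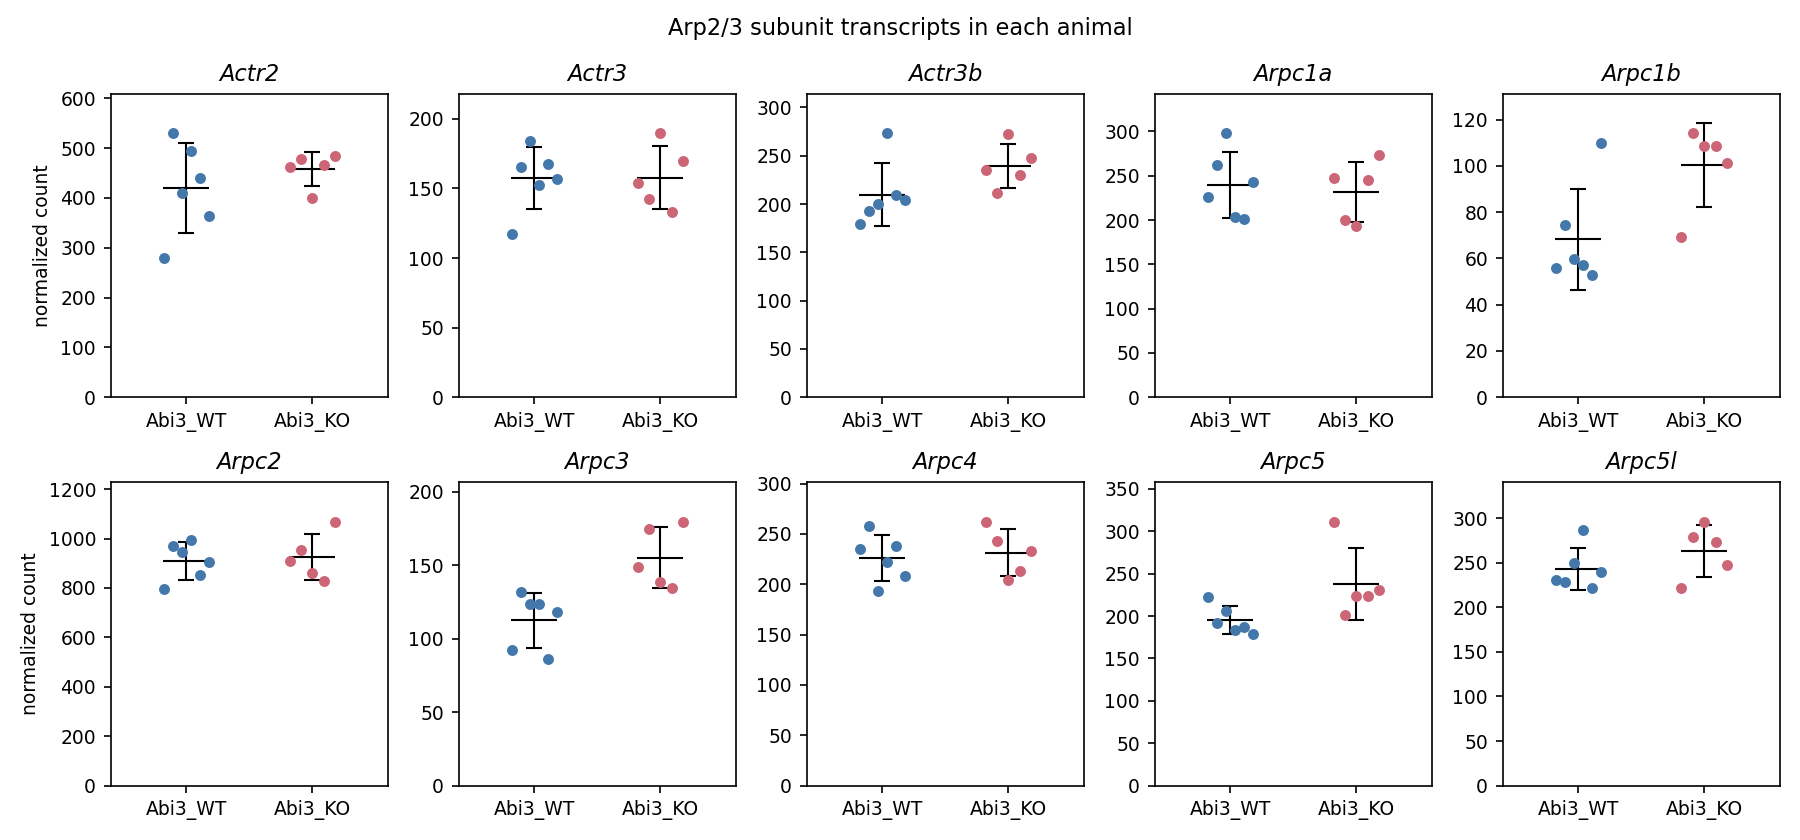
Normalized counts (reads divided by the DESeq2 size factor of the library, vertical axes from 0) of each subunit in the 6 Abi3_WT (blue) and 5 Abi3_KO (red) animals, with bars for the mean and SD. The groups are apart for Arpc3 only, and 1 Abi3_WT and 1 Abi3_KO animal stand away from the rest of their groups for Arpc1b.

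Arpc3 encodes the subunit that contacts ACTR3. Its normalized counts, reads divided by a size factor that brings the libraries to 1 depth, ran from 86.2 through a median of 121 to 132 in Abi3_WT, and were 149, 175, 138, 134 and 179.8 in Abi3_KO replicates 1 to 5. Each Abi3_KO animal was above each Abi3_WT animal, which held for 1 of the 10 members and, in the direction of higher in Abi3_KO, for 0.539% of all genes tested. The means were 113 ± 18.7 (SD, n = 6) and 155 ± 20.9 (SD, n = 5), a log2 fold change of 0.46 (SE 0.16) or 1.38-fold with a 95% interval of 1.11 to 1.70. DESeq2 gave an unadjusted p of 0.00312 and an adjusted p of 0.114 for it. With reads outside genes as a covariate the log2 fold change was 0.19 (SE 0.29, unadjusted p = 0.502 in DESeq2).

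Arpc1b encodes the ARPC1 form of the haematopoietic lineage, to which microglia belong. Its normalized counts ran from 52.9 through a median of 58.3 to 110.0 in Abi3_WT, and were 69.2, 114, 109, 108 and 101 in Abi3_KO replicates 1 to 5. One animal of each group lay on the other group's side, since Abi3_WT replicate 6 had the highest value of its group and Abi3_KO replicate 1 the lowest of its own. The means were 68.3 ± 21.8 (SD, n = 6) and 100.3 ± 17.98 (SD, n = 5), a log2 fold change of 0.56 (SE 0.22) or 1.47-fold with a 95% interval of 1.10 to 1.97. The DESeq2 p was 0.0094 unadjusted and 0.201 adjusted. Without Abi3_WT replicate 6 the other 5 had 59.95 ± 8.36 (SD), the log2 fold change was 0.74 and the adjusted p from DESeq2 was 0.0463, where 0.272% of all genes were called. DESeq2's filter on low counts gave Arpc1b no adjusted p in 7 of the 21 other fits tried, so that it could not be called there, and it was called in none of the remaining 13. Without Abi3_KO replicate 1 the log2 fold change was 0.67 with an unadjusted p of 0.00213 and no adjusted p in DESeq2.

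Arpc5 encodes the smallest subunit, through which the complex is tied to ACTR2. It had 179 to 223 normalized counts in Abi3_WT with a median of 189.8, and 311, 201, 223, 224 and 231 in Abi3_KO replicates 1 to 5. The highest Abi3_WT value lay below 4 of the 5 Abi3_KO values, and Abi3_KO replicate 1 stood above all others. The means were 195 ± 16.4 (SD, n = 6) and 238 ± 42.5 (SD, n = 5), a log2 fold change of 0.29 (SE 0.13) or 1.22-fold with a 95% interval of 1.03 to 1.46. DESeq2 gave an unadjusted p of 0.0230 and an adjusted p of 0.307 for it. Without Abi3_KO replicate 1 the log2 fold change was 0.17 and the unadjusted DESeq2 p was 0.15.

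The actin-related subunits, which form the first pair of the new filament, had overlapping groups. Actr2 ran from 279.7 through 425 to 529.9 normalized counts in Abi3_WT (419 ± 90.8, SD, n = 6) and had 461, 479, 399.9, 466.4 and 485 in Abi3_KO (458 ± 33.9, SD, n = 5), a log2 fold change of 0.12 (SE 0.13, DESeq2 adjusted p = 0.758). Actr3 ran from 118 through 161 to 184 in Abi3_WT and had 154, 142, 189.8, 133 and 169.6 in Abi3_KO. Its means of 157 ± 22.3 (SD, n = 6) and 158 ± 22.4 (SD, n = 5) were nearly the same, and the 95% interval of the fold was 0.823 to 1.22. Actr3b, the paralog of Actr3 that is abundant in brain, ran from 179 through 202 to 273 in Abi3_WT and had 235, 211, 272, 230.4 and 248 in Abi3_KO. All 5 Abi3_KO values of Actr3b were above the Abi3_WT mean of 209.8 ± 32.9 (SD, n = 6), but Abi3_WT replicate 4 was above all of them, and the log2 fold change of 0.19 (SE 0.13) had an adjusted p of 0.576 in DESeq2.

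The filament-binding core had no difference beyond the spread between animals. Arpc2, a core subunit, ran from 796 through 924 to 994 normalized counts in Abi3_WT and had 910.3, 955, 862, 830.1 and 1069 in Abi3_KO. Its means were 909.5 ± 75.2 (SD, n = 6) and 925 ± 93.2 (SD, n = 5), with a 95% interval of the fold of 0.91 to 1.14. Arpc4, its partner in the core, ran from 193 through 229 to 258 in Abi3_WT and had 262, 243, 204, 213 and 233 in Abi3_KO, with a fold interval of 0.873 to 1.20. These intervals leave out a change as large as the 1.38-fold difference measured for Arpc3.

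The alternative forms of ARPC1 and ARPC5 also overlapped. Arpc1a, the widely expressed ARPC1, ran from 201 through 235 to 298 normalized counts in Abi3_WT (239 ± 37.3, SD, n = 6) and had 247, 199.99, 193, 245 and 273 in Abi3_KO (232 ± 34.0, SD, n = 5). It was the single member whose Abi3_KO mean was below the Abi3_WT mean, with a log2 fold change of -0.042 (SE 0.13, DESeq2 adjusted p = 0.937). Arpc5l ran from 222 through 235 to 287 in Abi3_WT and had 221, 279, 296, 273 and 247 in Abi3_KO, with means of 243 ± 23.8 (SD, n = 6) and 263 ± 29.3 (SD, n = 5). Over the 7 members with an unadjusted p of 0.05 or more, the 95% intervals of the fold reached from 0.81 to 1.35, narrowest for Arpc2 and reaching highest for Actr3b.

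**Figure D2:**
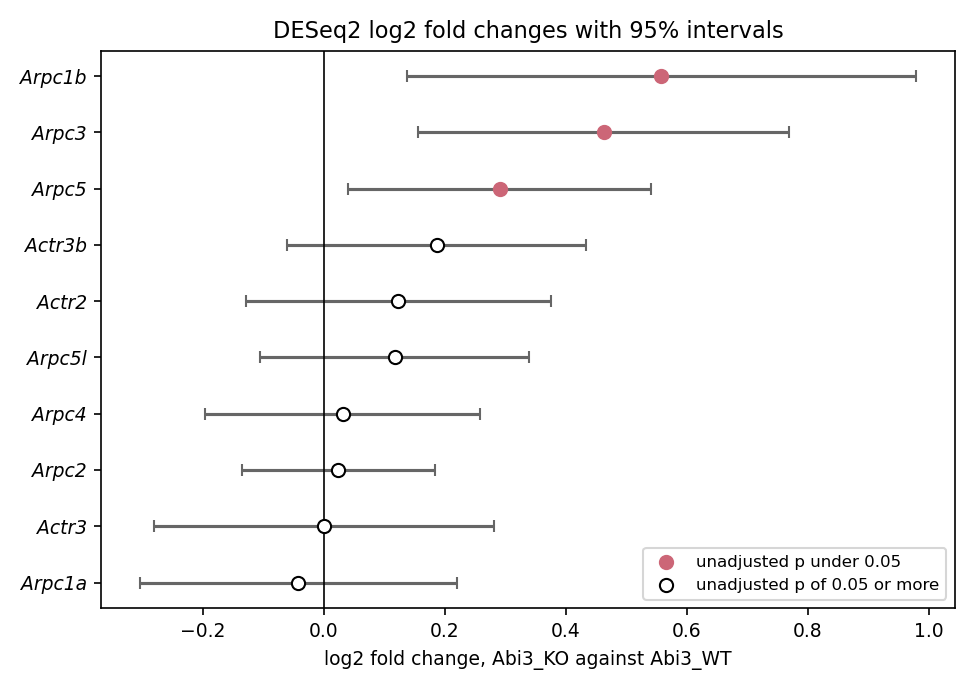
DESeq2 log2 fold change of each subunit, Abi3_KO against Abi3_WT (horizontal axis), with 95% intervals as bars. The intervals of Arpc1b, Arpc3 and Arpc5 (red) lie above 0 and those of the other 7 (open circles) span it.

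Summed over the 10 members, normalized counts were 2780 ± 219 (SD, n = 6) for Abi3_WT against 3001 ± 149 (SD, n = 5) for Abi3_KO, and the ranges of 2435 to 3003 and 2858 to 3236 overlapped. Arpc2 made up 32.7% of the sum in Abi3_WT and 30.8% in Abi3_KO, so the sum was weighted towards 1 member. Counted by animal instead, 1 to 5 of the 10 members were above their median over the 11 animals in Abi3_WT, and 5 to 8 in Abi3_KO. Animals of 1 genotype varied by a coefficient of variation of 8.27 to 31.9% in Abi3_WT and 7.41 to 17.9% in Abi3_KO, highest for Arpc1b in both. Arpc1b also had the fewest reads, from 49 to 113 an animal, for which counting alone gives a coefficient of variation of 11.9% in Abi3_WT. The intervals and this figure treat reads as separate molecules, although no step that collapses PCR copies was stated.

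The share of each paralog among the reads of a pair does not depend on the scaling between libraries. QuantSeq counts are not divided by length, because a transcript gives 1 fragment whatever its length, but differences in how well each 3′ end is read remain in the share. Arpc1b made up 22.1% ± 4.86 (SD, n = 6) of the Arpc1a and Arpc1b reads in Abi3_WT and 30.4% ± 6.13 (SD, n = 5) in Abi3_KO, a difference of 8.30 percentage points (exact permutation test, two-sided, p = 0.0519, adjusted over the 3 pairs 0.156). The Abi3_WT shares ran from 16.7 to 22.1% in replicates 1 to 5 and reached 31.1% in replicate 6, and the Abi3_KO shares were 21.9, 36.3, 36.0, 30.7 and 27.1%. Only 2 of the 5 Abi3_KO shares were above all Abi3_WT shares. Without Abi3_WT replicate 6 the difference was 10.1 points (exact permutation test, two-sided, p = 0.0238), and without Abi3_KO replicate 1 it was 10.4 points (exact permutation test, p = 0.0286). In the other 9 fits without 1 animal the exact p was above 0.05, and the smallest difference, 6.81 points, was that without Abi3_KO replicate 2 (exact permutation test, p = 0.114).

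The other pairs had no difference beyond the spread between animals. Arpc5l made up 55.4% ± 3.43 (SD, n = 6) of the Arpc5 and Arpc5l reads in Abi3_WT and 52.7% ± 6.69 (SD, n = 5) in Abi3_KO (exact permutation test, two-sided, p = 0.489). The lowest share, 41.5%, was that of Abi3_KO replicate 1, the animal with the high Arpc5 count. Actr3b made up 57.1% ± 4.47 (SD, n = 6) of the Actr3 and Actr3b reads in Abi3_WT and 60.4% ± 1.76 (SD, n = 5) in Abi3_KO (exact permutation test, two-sided, p = 0.169). Without Abi3_WT replicate 4, whose share of 64.2% was the highest, the difference was 4.67 points (exact permutation test, p = 0.0397).

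**Figure D3:**
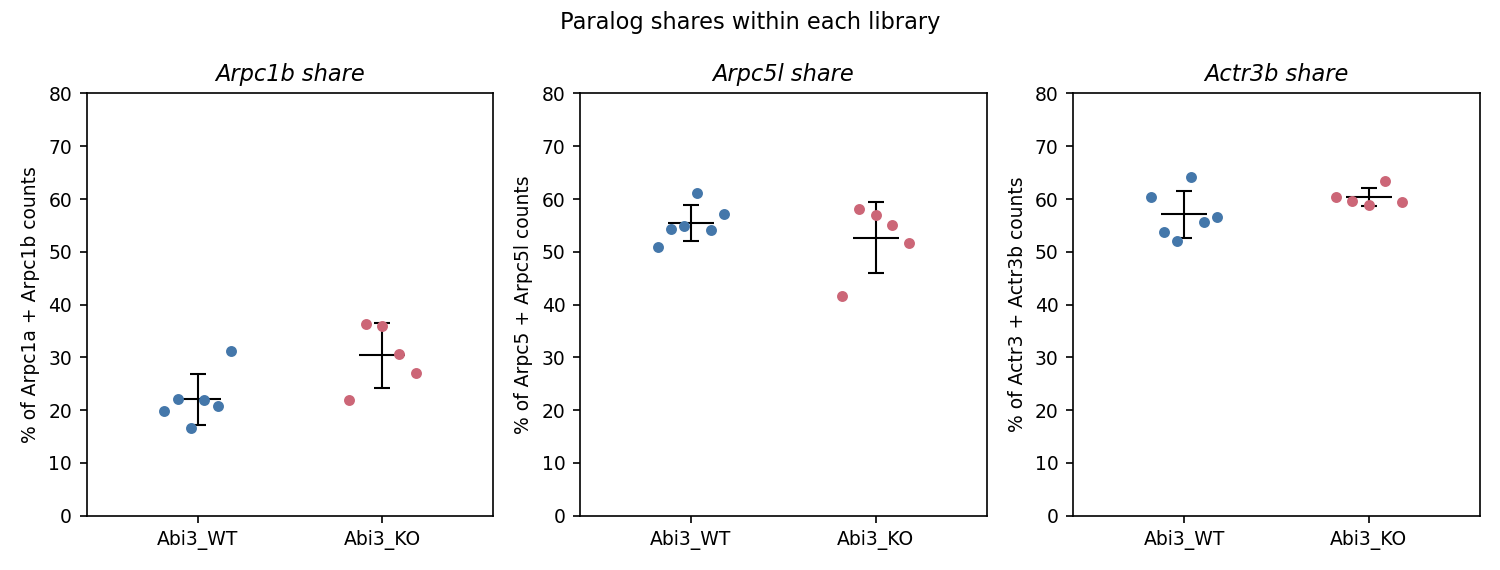
Share of Arpc1b, Arpc5l and Actr3b in the raw reads of their paralog pair (vertical axes, %) in the 6 Abi3_WT (blue) and 5 Abi3_KO (red) animals, with bars for the mean and SD. The Arpc1b share has the widest separation, 22.1% against 30.4%, with 1 Abi3_WT animal at 31.1% and 1 Abi3_KO animal at 21.9%.

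Since Arpc1b is the ARPC1 form of immune cells, markers of microglia were read beside it. Of 12 microglial markers 1 passed the threshold, Ctss, a lysosomal protease (990.4 ± 172, SD, n = 6, against 1344 ± 168, SD, n = 5; log2 fold change 0.44, DESeq2 adjusted p = 0.00758). C1qa, the complement component, had a log2 fold change of 0.47 at an unadjusted DESeq2 p of 0.00135. Trem2, the lipid receptor, had one of 0.36 at a p of 0.0235, and Tyrobp, its adaptor, one of 0.30 at a p of 0.0499. Of the 12 fold changes 11 were above 0, with a median of 0.20. None of the 12 was at 0 in any animal, and Ctss was called by limma but not by edgeR or with reads outside genes as a covariate. Without Abi3_WT replicate 1, or without Abi3_KO replicate 3, 2 of the 12 were called. The summed level of the 12 was 860.1 to 1190 CPM (reads scaled to the total of the library) in Abi3_WT and 984 to 1371 CPM in Abi3_KO. Cx3cr1, a defining microglial receptor, had a log2 fold change of 0.077 (DESeq2 adjusted p = 0.853) and Csf1r, the receptor on which microglia depend, one of -0.053. Abi3_WT replicate 6, with the highest Arpc1b count of its group, had a microglial sum of 911 CPM, the third lowest of the 11 animals, and Abi3_KO replicate 1, with the lowest Arpc1b count of its group, had 984 CPM, the lowest of its group. Abi3_WT replicate 1 had the highest microglial sum of its group, 1190 CPM, at 55.9 normalized counts of Arpc1b. In Abi3_KO the highest sum was that of replicate 4, 1371 CPM, at 108 normalized counts of Arpc1b. The part of microglial RNA in the Arpc1b values was not tested.

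Of 8 neuronal markers, whose cells make up most of the RNA of cortex, Thy1 passed the threshold (log2 fold change 0.59, DESeq2 adjusted p = 3.45e-17), and its promoter is also the one in the transgenes. Stmn2, a tubulin regulator of growing neurites, was higher at an unadjusted DESeq2 p of 0.00101 (log2 fold change 0.30, adjusted p of 0.0641), and Snap25, a synaptic SNARE protein, at one of 0.0351 (0.18, adjusted p of 0.361). Of the 8 log2 fold changes 6 were above 0, with a median of 0.11 and the lowest at -0.18. The summed level of the 8 markers was 5045 to 5995 CPM in Abi3_WT and 5856 to 6866 CPM in Abi3_KO. Thy1, at 3755 ± 123 (SD, n = 6) against 5642 ± 580 (SD, n = 5) normalized counts, is part of that sum. The part of neuronal RNA in the subunit values was not tested. Of the astrocyte, oligodendrocyte, precursor, endothelial, choroid plexus and blood cell markers, none passed the threshold in DESeq2, and Cnp, a myelin enzyme (0.30), and Cdh5, an endothelial cadherin (-0.92), had an unadjusted p under 0.05 (0.0256 and 0.017). The medians were -0.11 for astrocyte, 0.15 for oligodendrocyte, 0.14 for precursor, -0.12 for endothelial, 0.081 for choroid plexus and -1.10 for blood cell markers. Choroid plexus markers, led by Ttr, varied widely between animals, from 13.7 to 979 CPM in Abi3_WT and 20.1 to 636 CPM in Abi3_KO. So did blood cell markers, from 6.73 to 97.4 CPM in Abi3_WT and 2.09 to 106.8 CPM in Abi3_KO.

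The WAVE complex activates Arp2/3, and ABI3 belongs to it. None of its 10 other subunits passed the threshold, and the median log2 fold change was 0.19 with 9 of 10 above 0. At an unadjusted p under 0.05, 4 were higher and none was lower, beside 4.14% and 4.44% of all genes tested. Among genes given an adjusted p, 7.45% were higher. Wasf3, which encodes the WAVE3 scaffold that contacts Arp2/3, was at 185 ± 11.9 (SD, n = 6) against 225 ± 12.97 (SD, n = 5) normalized counts, and its groups did not overlap (log2 fold change 0.29, unadjusted p of 0.00923 and adjusted p of 0.1996 in DESeq2). Groups apart in that direction were found for 0.539% of all genes tested. Abi1, the paralog of Abi3, had a log2 fold change of 0.27 at an unadjusted DESeq2 p of 0.0479. Cyfip1, the Rac-binding subunit, had one of 0.26 at a p of 0.0292, and Brk1, the smallest subunit, one of 0.19 at a p of 0.0425. Abi2, Cyfip2, Nckap1, Nckap1l, Wasf1 and Wasf2 were between -0.10 and 0.22. No gene of this list or of the other lists of actin regulators was called by edgeR or limma. The same 11 animals gave the WAVE and the Arp2/3 values, so that the lists are not independent of each other.

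The other activators of Arp2/3 held no gene past the threshold. Of 15 genes of the WASP, WASH, WHAMM, JMY and cortactin branches, which act at the plasma membrane, on endosomes and in the nucleus, none had an unadjusted p under 0.05 in either direction and the median log2 fold change was 0.0042. Of 10 inhibitors and branch-removing factors, with a median of -0.10, none passed the threshold, and Pick1, which encodes a PDZ protein that binds Arp2/3, was lower at an unadjusted p of 0.0349 (89.8 ± 27.5, SD, n = 6, and 64.3 ± 11.9, SD, n = 5; log2 fold change -0.48, DESeq2 adjusted p = 0.361). Arpin, the competitive inhibitor, had a log2 fold change of 0.44 at an unadjusted p of 0.261. Of 16 upstream GTPases and their activators, with a median of 0.020, none passed, and Cdc42, the GTPase that opens WASP proteins, came nearest, at 590.2 ± 70.2 (SD, n = 6) against 716 ± 53.7 (SD, n = 5) normalized counts (log2 fold change 0.28, unadjusted p of 0.00177 and adjusted p of 0.0927 in DESeq2). Rac1, which opens the WAVE complex, had one of 0.14 at an unadjusted p of 0.0968. In the fit without Abi3_WT replicate 3, 1 of these 16 genes was called by DESeq2.

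The actin pool that the complex uses held 1 gene past the threshold among 19. Tmsb4x, which encodes thymosin beta 4, the main buffer of actin monomers, was at 1978 ± 174 (SD, n = 6) against 2357 ± 154 (SD, n = 5) normalized counts in Abi3_KO (log2 fold change 0.25, DESeq2 adjusted p = 0.028). At an unadjusted DESeq2 p under 0.05, 4 more were higher and none of the 19 was lower, with a median of 0.14. Over all genes tested 4.14% were higher and 4.44% lower at that p, and 7.45% were higher among those given an adjusted p. Capza2, a filament capping protein, had a log2 fold change of 0.28 at a p of 0.00367, and Pfn2, a profilin that delivers actin monomers, one of 0.18 at a p of 0.0238. Dstn, which severs filaments, had one of 0.20 at a p of 0.0269, and Cap2, which recycles actin monomers, one of 0.26 at a p of 0.0381. The Tmsb4x call was lost without Abi3_WT replicate 5 or 6, without Abi3_KO replicate 2 or 3, with independent filtering off, with the replicate number as a block and with reads outside genes as a covariate. Of 16 formins and other nucleators, which make unbranched filaments and serve here as the counterpart to Arp2/3, none had an unadjusted p under 0.05 and the median was -0.013. Of 8 actin-related proteins outside the complex, Actr1b of the dynactin filament was higher at an unadjusted p of 0.0365 (log2 fold change 0.25), and the median was 0.0087. Of 10 actin regulators restricted to blood and immune cells, such as Was, Hcls1 and Nckap1l, none had an unadjusted p under 0.05 and the median was 0.14, and 9 of the 10 had a mean of at most 41.5 normalized counts.

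**Figure D4:**
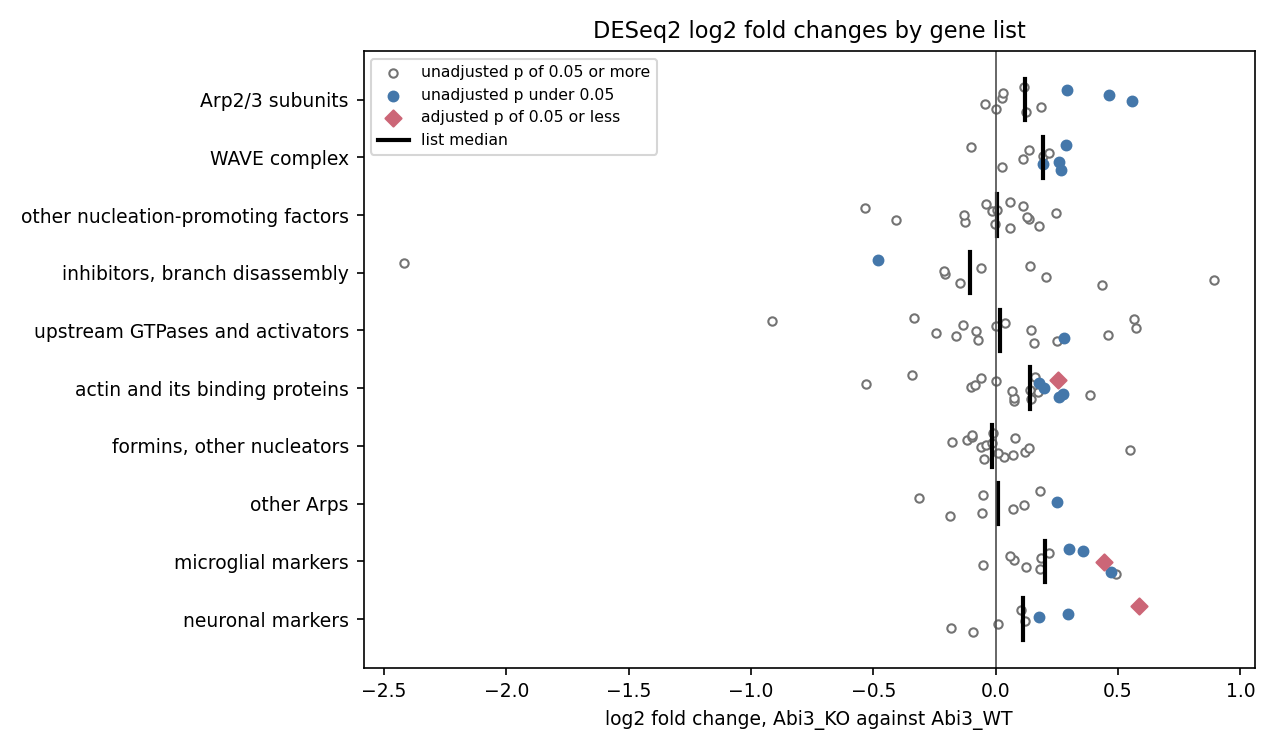
DESeq2 log2 fold changes (horizontal axis, Abi3_KO against Abi3_WT) of the genes of each list, with the list median as a black bar. The medians are 0.12 for Arp2/3, 0.19 for the WAVE complex, 0.14 for actin and its binding proteins, 0.20 for microglial markers and 0.11 for neuronal markers. Those of the other nucleation-promoting factors, the upstream GTPases, the formins and the other Arps are close to 0, and that of the inhibitors is -0.10.

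Near-identical sequences and overlapping genes were checked for each member. Processed pseudogenes that match a member over at least 70 bases at 95% identity or more exist for Actr2, Actr3, Arpc1a, Arpc1b, Arpc2 and Arpc5, and they drew at most 4 reads in all 11 libraries together (Actr3-ps, which matches Actr3 over 2348 bases at 98.8%). A read that aligned equally well to both places would have been given to neither, so the Actr3 count is uncertain to that extent. Arpc4 shares 283 exon bases with Ttll3 on the same strand, and reads there could be given to neither. Arpc1b shares 931 exon bases with Pdap1 on the other strand, and counting used the strand.

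The direction of the leading members was compared over 21 other fits. Arpc1b, Arpc3 and Arpc5 were higher in Abi3_KO in all 21, between 0.49 and 0.79, between 0.19 and 0.52 and between 0.17 and 0.35 on the log2 scale. Their unadjusted p was under 0.05 in 21, 20 and 18 of these fits. edgeR, by which 0.193% of 12927 genes were called, and limma, by which 0.132% were called, called no member. DESeq2 gave no adjusted p, and so no possible call, in 7 of the 21 fits for Arpc1b, 4 for Arpc3 and 2 for Arpc5. Actr3, Arpc1a, Arpc2 and Arpc4 changed sign in at least 1 fit.

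**Figure D5:**
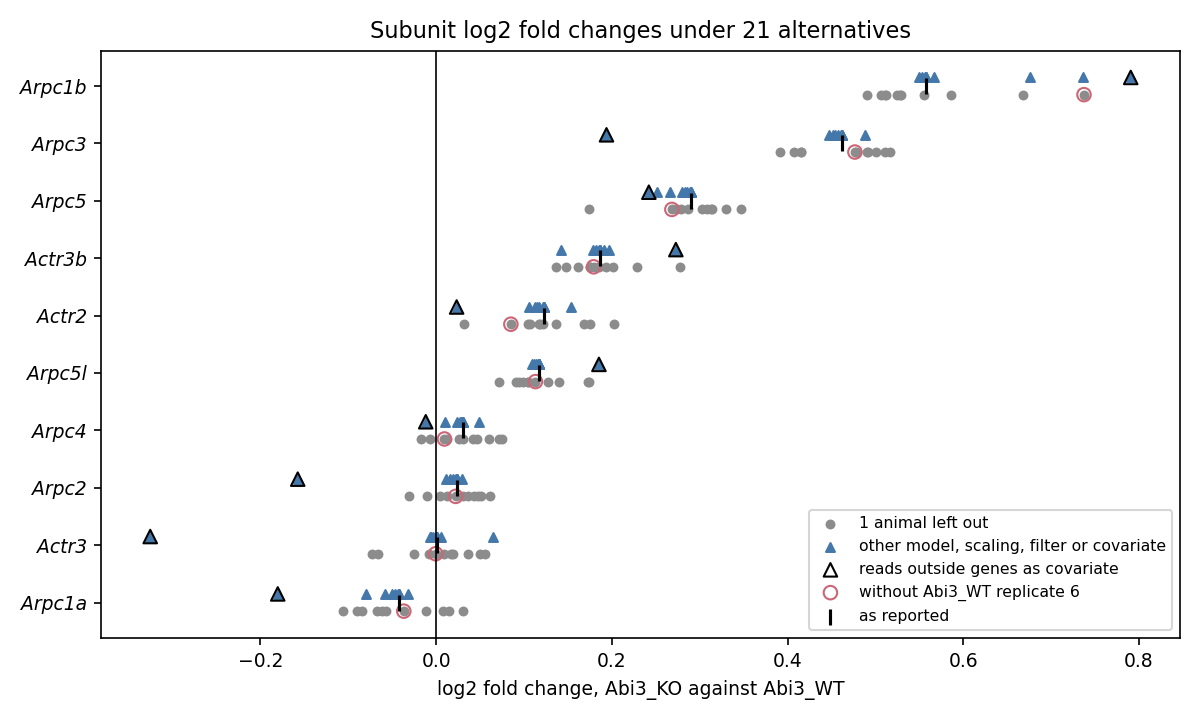
Log2 fold change of each subunit (horizontal axis, Abi3_KO against Abi3_WT) as reported (black bar), with 1 animal left out (grey) and with another model, scaling, filter or covariate (blue triangles). Arpc1b rises to 0.74 without Abi3_WT replicate 6 (red ring), and the covariate for reads outside genes (black triangles) gives the lowest value of Arpc3, 0.19.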

How the data were processed

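The authors deposited raw read counts per Ensembl gene for each animal, without normalization. Per the labels and the study's methods, single-end QuantSeq reads were trimmed, aligned with STAR 2.7.3a to GRCm39 and counted on the matching strand with HTSeq 0.9.1. Rows that name no gene were left out of library sizes; those for reads outside genes were used as a library property. Gene names and positions came from a later GENCODE annotation of the same build, which held 52610 of 53700 identifiers. DESeq2 version 1.42.0 under R 4.3.3 fitted the counts on genotype alone, on genes with at least 10 counts in total and a mean normalized count of at least 1.5, with Benjamini-Hochberg adjustment over all genes at 0.05 and independent filtering aimed at 0.05. Paralog shares were compared by exact permutation tests over the animals. Pseudogenes were sought with BLAST (version 2.17.0) and promoters were read from a RefSeq table, which matched 8 of the 10 members. The fits were tested on simulated data.

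The alternatives were edgeR (version 4.0.16), limma (version 3.58.1) with voom, TMM factors, 2 other filters on low counts, 2 other settings of independent filtering, the replicate number as a block (Abi3_WT replicate 6 left out), reads outside genes as a covariate, libraries thinned to the smallest, and leaving out each animal. Named were the members, Abi3, genes of the lists past the threshold, up to 4 a list with the smallest unadjusted p under 0.05, and the most abundant markers; Arpin, Rac1, Csf1r, Was, Hcls1 and the remaining WAVE subunits were added after their values were seen. The members and lists were chosen with earlier results of these data known, and the motifs after the sequences were seen. The depth of 3202310 to 5501958 reads in genes gave each member at least 49 reads in each animal.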

Additional observations from a re-analysis of the deposited data

Results flagged for a closer look

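Among 30 sets of values examined (the normalized counts of the 10 members and Abi3, the 3 paralog shares and the reads outside genes, each within a genotype), 7 held 1 animal far from the rest by Dixon's test, where chance gives about 1.5. Arpc1b gave 3 of them. Abi3_WT replicate 6 had 110.0 normalized counts of Arpc1b, with the nearest animal at 74.3, and an Arpc1b share of 31.1%, with the nearest at 22.1%. Abi3_KO replicate 1 had 69.2 normalized counts of Arpc1b, with the nearest at 101. The same animal was high for Arpc5 at 311, with the nearest at 231. Abi3_WT replicate 4 was high for Actr3b at 273, with the nearest at 209. Abi3_KO replicate 3 was low for Actr2 at 399.9, with the nearest at 461. Abi3_KO replicate 2 was high for Abi3 itself at 2.02 normalized counts, from 2 reads, beside 0 in the other 4. No explanation of these values was tested.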

How the results depend on the processing

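The 3 leading members kept their direction in all 21 alternatives, and 1 alternative called a member. An adjusted p, without which no call is possible, was given in 14 of the 21 for Arpc1b, 17 for Arpc3 and 19 for Arpc5; under the replicate block none of these 3 had one, with an unadjusted DESeq2 p of 0.0018 for Arpc1b. Of all genes, 25 were called by edgeR, 17 by limma, 57 with independent filtering off, 33 with the replicate number as a block and 3 with reads outside genes as a covariate, beside 95 as reported; leaving out 1 animal gave 46 to 120 calls, and 0 or 1 called members. The 1 was Arpc1b without Abi3_WT replicate 6. The 95 also fell by more than 1.5 times without Abi3_WT replicates 1 (61) and 6 (48) and without Abi3_KO replicates 1 (61), 2 (46) and 5 (47).

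Actr3, near 0 as reported, was at -0.0070 with TMM factors, -0.0036 in edgeR, -0.0062 in limma, -0.00052 with the stricter filter and -0.33 with the covariate, and from -0.073 to 0.056 with 1 animal left out. With the covariate Arpc2 was at -0.16 and Arpc4 at -0.012. With 1 animal left out the log2 fold change ran from -0.11 to 0.030 for Arpc1a, -0.031 to 0.062 for Arpc2 and -0.018 to 0.075 for Arpc4. The difference in the Arpc1b share was 10.6 points in thinned libraries (exact permutation test, p = 0.0260) and 6.81 to 10.4 with 1 animal left out. The Arpc5l share differed by -4.10 to 0.042 points and the Actr3b share by 2.23 to 4.67. The cause of these shifts was not tested.

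The replicate numbers 1 to 5 are shared by the groups, but same-numbered animals deviated together with correlations of -0.020 to 0.12, so the fits carry no pairing. The replicate block leaves out Abi3_WT replicate 6, which has no same-numbered partner. Under it Arpc1b was at 0.74, Arpc3 at 0.49 and Arpc5 at 0.25, and the Arpc1b share differed by 10.1 points (exact permutation test on 5 pairs, p = 0.0625, the smallest it can give). Without that animal and with no block, Arpc1b was also at 0.74, Arpc3 at 0.48 and Arpc5 at 0.27, and the share difference was also 10.1 points.

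Depth limits Arpc1b most, at 49 to 113 reads an animal, and with 11 animals the fold intervals of members not past an unadjusted p of 0.05 reached 1.35. In the covariate fit 3 genes were called over the whole table. Genotype and reads outside genes moved together, so that fit cannot tell their parts in a single gene apart.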
